A study of Mus musculus with 4 samples.

Results

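PIWI-interacting RNAs (piRNAs) are short RNAs of germ cells that guide PIWI proteins to transcripts of transposons, which are then cut or silenced. Their making takes place in granules close to mitochondria, where RNA helicases and Tudor domain proteins bring PIWI proteins and precursor RNAs together. Many genes of this pathway, and the germ cell RNA-binding protein gene Dazl, are kept silent or low outside the germ line by DNA methylation and by repressor complexes at their promoters. The genes described here are 10 such genes chosen by name from 22138 in the table: Piwil2, Tdrd1, Tdrd9, Tdrkh, Mov10l1, Ddx4, Mael, Asz1, Tex19.1 and Dazl. All 10 were found. They lie on 10 different chromosomes: Mael on 1, Tdrkh on 3, Asz1 on 6, Dazl on 17, Tex19.1 on 11, Tdrd9 on 12, Ddx4 on 13, Piwil2 on 14, Mov10l1 on 15 and Tdrd1 on 19.

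The RNA came from TT2, a female mouse embryonic stem cell line from a C57BL/6xCBA background, grown feeder-free in serum with LIF. One group received control siRNA (n = 2 libraries) and the other Hnrnpk siRNA (n = 2 libraries), both first at 100 nM and again 24 hours later at 50 nM, with RNA taken about 72 hours after the second transfection. The series title names hnRNP K, the protein encoded by Hnrnpk, in silencing by SETDB1, a methyltransferase for lysine 9 of histone H3. The question put to these genes is therefore whether their transcripts changed when Hnrnpk was depleted. The labels name no genetic change in either group, the siRNA sequence was not given in the sources used here, and a single cell line stands behind all 4 libraries.

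Values were RPKM, reads scaled to transcript length and library size, listed above 0 for 17566 to 18077 genes per library. The relative depth, read from the steps between low values, was 0.882 to 1 with control replicate 1 set to 1. Hnrnpk stood at 236 and 226 RPKM after control siRNA and at 68.0 and 70.5 RPKM after Hnrnpk siRNA, that is, -1.73 on the log2 scale (limma, SE 0.0629, adjusted p = 6.59e-08). A near-identical gene model, Gm7964, shares 46.4% of the Hnrnpk transcript, so that level is uncertain. The labelled cell type was checked on 8 stem cell markers, of which the lowest value in any library was 94.2 RPKM (Klf4). After Hnrnpk siRNA, 2 of the 8 were higher (Nanog and Dppa5a) and 2 lower (Sox2 and Tdgf1) at a limma adjusted p under 0.05. Over all genes tested these shares were 32.2% and 35.0%. With 2 libraries a group an exact permutation test of 1 gene cannot go below p = 0.333, so each call rests on the spread that limma pools over genes. The series calls the libraries of a group biological replicates but does not say that they came from separate cultures, so the p-values may measure technical spread only.

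The promoters are shown first because DNA methylation, which falls on CG dinucleotides, is a known silencer of such germ line genes. The set of RefSeq promoters used here, on build GRCm38.p6, held 9 of the 10 genes, all but Piwil2. The 250 bases before the start held 8 to 31 CG dinucleotides in these 9 genes, with a median of 18, against a median of 6 over 27025 genes. Ddx4 had the most (31), and 95.1% of all promoters had fewer. The GENCODE start of Ddx4 (112652475) lies upstream of the RefSeq start used (112652310), so most of its window falls within the GENCODE gene. Smaller parts of the Mov10l1, Dazl and Mael windows do so too. Tdrd9 had the fewest (8). The stretches of Dazl and Tex19.1, the genes with the largest changes on the log2 scale, are given with each CG in capitals, 5′ to 3′ on the strand of the gene, stopping at whichever of the RefSeq and GENCODE starts comes first.
Dazl (chr17:50293637-50293870, minus strand, 234 bases, 19 CG): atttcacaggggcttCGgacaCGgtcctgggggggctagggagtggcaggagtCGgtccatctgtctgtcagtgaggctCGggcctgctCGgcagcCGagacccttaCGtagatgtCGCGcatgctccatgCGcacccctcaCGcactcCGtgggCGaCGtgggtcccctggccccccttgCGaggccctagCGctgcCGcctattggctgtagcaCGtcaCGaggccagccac
Tex19.1 (chr11:121145893-121146142, plus strand, 250 bases, 15 CG): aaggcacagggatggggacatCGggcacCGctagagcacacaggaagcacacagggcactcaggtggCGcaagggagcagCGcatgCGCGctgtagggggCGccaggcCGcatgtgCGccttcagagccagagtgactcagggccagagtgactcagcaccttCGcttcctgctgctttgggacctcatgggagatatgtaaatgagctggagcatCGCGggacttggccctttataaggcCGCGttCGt

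A pair of short words that repressors of germ line genes can bind was searched on both strands in the 250 bases. These were the E-box CACGTG, which MGA and MAX can recognise, and GGCGGGA, an E2F-type word that E2F6 can recognise. The E-box was present in 5 of the 9 promoters (Ddx4, Mael, Mov10l1, Tdrd1 and Tdrd9) and in 6.04% of all 27025. Among the 11731 promoters with 8 or more CG dinucleotides it was present in 9.32%. The E2F-type word was present in 2 of the 9 (Ddx4 and Mael), in 9.79% of all promoters and in 20.3% of those with 8 or more CG. No matches overlapped each other, and the E-box reads the same on both strands. Neither word lay in the windows of Dazl, Tex19.1, Asz1 or Tdrkh, which says only that these letters are not in those 250 bases. Both Ddx4 matches lie before the RefSeq start but within the GENCODE gene. A match is a description of letters and shows neither binding nor which factor would bind. The matches are printed with the word in capitals, 5′ to 3′ on the strand of the gene, on which the Mael E2F-type word is in reverse complement.
Mael E-box (chr1:166238950-166238979, minus strand): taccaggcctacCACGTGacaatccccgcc
Mael E2F-type word (chr1:166238870-166238898, minus strand): ctcctcctcccTCCCGCCccctccgcccc
Ddx4 E-box (chr13:112652322-112652351, minus strand): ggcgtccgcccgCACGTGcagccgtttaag
Ddx4 E2F-type word (chr13:112652430-112652458, minus strand): tccgtccatggGGCGGGAagtcgcgcgcc
Mov10l1 E-box (chr15:88982744-88982765, plus strand): ccttCACGTGctaaccgccaac
Tdrd1 E-box (chr19:56826186-56826208, plus strand): tggggctgcgcgCACGTGggagt
Tdrd9 distal E-box (chr12:111971382-111971411, plus strand): ggtctccataaaCACGTGcctgtccaggtc
Tdrd9 proximal E-box (chr12:111971452-111971481, plus strand): gcacgaggctccCACGTGcatgcagggcct

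**Figure D1:**
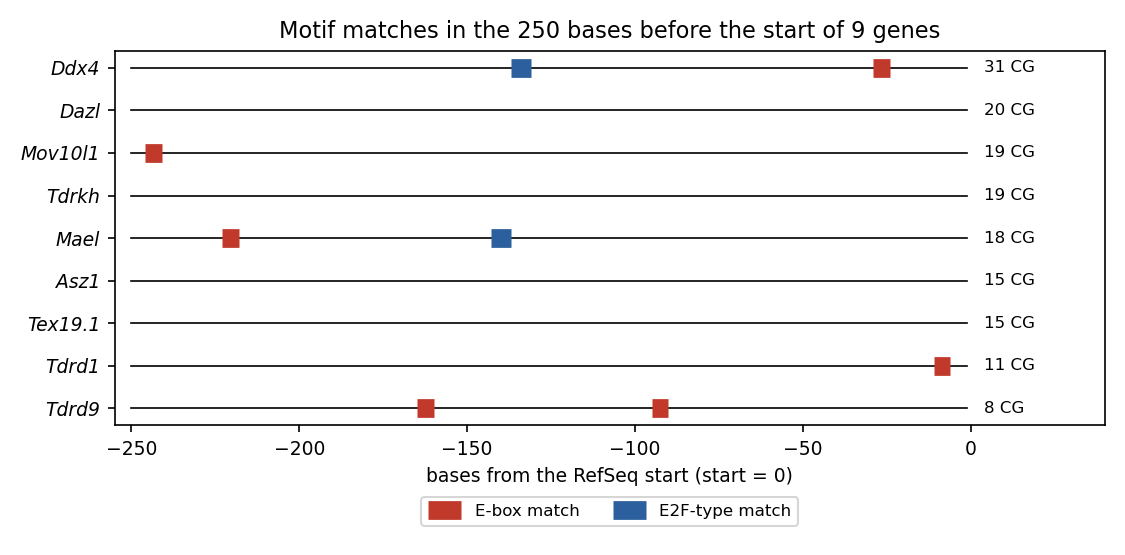
Positions of the 2 words in the 250 bases before the RefSeq start of 9 genes, with bases from the start on the x axis and the number of CG dinucleotides at the right of each line. Red blocks are E-box matches, seen in 5 genes, and blue blocks are E2F-type matches, seen in Ddx4 and Mael, while Dazl and Tex19.1 carry neither.

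After Hnrnpk siRNA each of the 10 genes was at a higher level. For all 10, the lower of the Hnrnpk siRNA values exceeded the higher of the control values. That arrangement was seen in 41.2% of the genes tested, a set that holds 8 of the 10 and leaves out Asz1 and Tdrd9. Testing required an average of 0.5 RPKM or more, which 8 of the 10 met, each resting on about 339 or more counting units in every library. A counting unit is the smallest step of the values, a read or a read pair, estimated here from GENCODE exon lengths. Asz1 and Tdrd9 were under 0.5 RPKM in every library. None of the 8 had a control mean under 0.5 RPKM. All 8 were called higher at a limma adjusted p under 0.05, against 32.2% of the 12486 genes tested, and 0 were called lower, against 35.0%, so that 67.2% of all genes tested were called in either direction. The log2 change was above 1 in Tex19.1, Dazl, Mael, Mov10l1 and Ddx4. The median log2 change was 1.29 over the 8 tested genes, and -0.015 over all genes tested. As the genes were chosen with results of these data known, these counts describe them and test nothing. In bulk RNA, more cells that express a gene and more RNA per cell cannot be told apart.

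**Figure D2:**
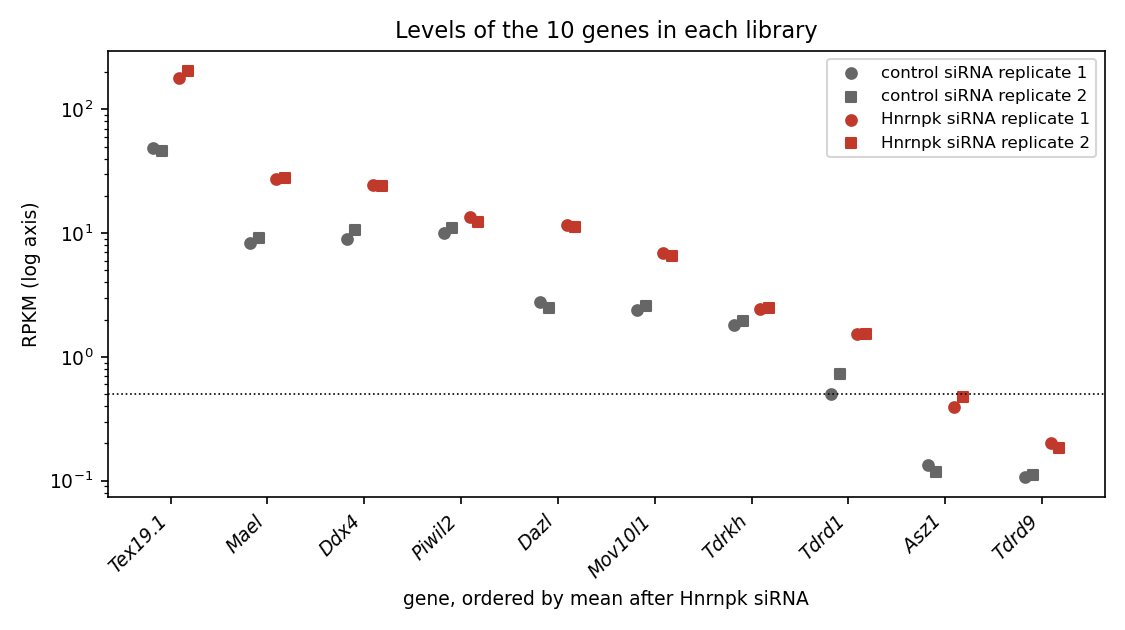
RPKM of the 10 genes in each of the 4 libraries on a log axis, grey for control siRNA and red for Hnrnpk siRNA, with circles for replicate 1, squares for replicate 2 and a dotted line at 0.5 RPKM. In every gene both red points lie above both grey points, widely apart for Tex19.1, Dazl and Mael and close together for Piwil2 and Tdrkh.

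Piwil2 encodes MILI, the PIWI protein that binds piRNAs in fetal and postnatal male germ cells. After control siRNA it was already at 10.1 and 10.96 RPKM, compared with 13.6 and 12.3 RPKM when Hnrnpk was depleted. The groups did not overlap, but the nearest libraries of the groups, control replicate 2 and Hnrnpk siRNA replicate 2, were close to each other. Piwil2 rose 1.23-fold, a log2 change of 0.28 on log2(RPKM + 0.5) (SE 0.0785, limma adjusted p = 0.00977), the smallest change of the 8 tested genes. A larger change was seen in 26.05% of all genes tested. Without Hnrnpk siRNA replicate 1 the log2 change was 0.21 and was not called (limma adjusted p = 0.112).

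The Tudor domain genes encode proteins that hold methylated PIWI proteins in place. Tdrd1, a scaffold that binds MILI, was at 0.502 and 0.729 RPKM after control siRNA and at 1.52 RPKM in both Hnrnpk siRNA libraries. The control libraries differed from each other more than the Hnrnpk siRNA libraries did, but the gap between the groups was larger than that spread. The log2 change of Tdrd1 was 0.86 (SE 0.114, limma adjusted p = 0.000115).

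Tdrkh, a Tudor and KH domain protein of the mitochondrial surface that takes part in trimming piRNA ends, was at 1.82 and 1.96 RPKM after control siRNA. It was at 2.46 and 2.48 RPKM after Hnrnpk siRNA. Tdrkh rose 1.31-fold, by 0.31 on the log2 scale (limma, SE 0.0873, adjusted p = 0.00970). The call was lost when either Hnrnpk siRNA library was left out, with log2 changes of 0.32 (replicate 1 left out, limma adjusted p = 0.0750) and 0.31 (replicate 2 left out, limma adjusted p = 0.0884). An antisense neighbour, Oaz3, overlaps 39.6% of the Tdrkh transcript, and strand use in counting was not given in the sources used here. Oaz3 itself was listed at 0.0461 RPKM or less in all 4 libraries.

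Tdrd9, a Tudor helicase that works with the nuclear PIWI protein MIWI2, had the lowest level of the 10. It was at 0.108 and 0.112 RPKM after control siRNA and at 0.200 and 0.183 RPKM after Hnrnpk siRNA, about 72.3 and 73.8 against 120 and 109 counting units. Tdrd9 was 1.75-fold higher, but was too low for the test. Its log2 change was 0.18 with 0.5 RPKM added and 0.48 with 0.1 RPKM added. When no filter was applied it was called (limma adjusted p = 0.00539).

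The helicase genes Mov10l1 and Ddx4 had larger log2 changes than Piwil2, although that difference was not tested. Mov10l1, the RNA helicase that delivers piRNA precursors for processing, was at 2.38 and 2.56 RPKM after control siRNA and at 6.94 and 6.57 RPKM after Hnrnpk siRNA. Ddx4, the mouse Vasa helicase and a classical germ cell marker, went from 8.98 and 10.6 RPKM to 24.7 and 24.1 RPKM. The groups lay far apart in both genes. Mov10l1 rose by 1.29 (SE 0.0830, limma adjusted p = 1.45e-06) and Ddx4 by 1.28 (SE 0.0831, limma adjusted p = 1.51e-06) on the log2 scale. The changes of Mov10l1 and Ddx4 lay within 1 SE of each other, and Ddx4 was the more abundant in every library.

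Mael encodes Maelstrom, a germ granule protein needed for transposon silencing. Its level was 8.30 and 9.07 RPKM after control siRNA and 27.4 and 28.1 RPKM after Hnrnpk siRNA. The 2 libraries of each group were close together and the groups were separated by a 3.19-fold difference of means. The log2 change of Mael was 1.62 (SE 0.0710, limma adjusted p = 1.57e-07), and 1.25% of the genes tested changed upward by more.

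Asz1 encodes GASZ, a protein that tethers the granule to mitochondria. It was at 0.133 and 0.118 RPKM after control siRNA and at 0.391 and 0.478 RPKM after Hnrnpk siRNA, or about 46.6 and 40.5 against 123 and 148 counting units. The groups did not overlap. The ratio of means of Asz1 was 3.47, larger than that of Mael, but it lay under the level needed for the test. Its log2 change was 0.58 with 0.5 RPKM added, 1.24 with 0.1 RPKM added and 0.35 with 1 RPKM added, and it was called when no filter was applied (limma adjusted p = 0.00205).

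Tex19.1, a gene of placental mammals whose protein restrains retrotransposons in germ cells, placenta and stem cells, had the highest level of the 10. It was at 49.2 and 46.4 RPKM after control siRNA and at 179 and 204 RPKM after Hnrnpk siRNA. In the control libraries 86.2% of the genes tested were lower. The rise was 4.01-fold (log2 change 1.99, SE 0.0758, limma adjusted p = 8.69e-08). Hnrnpk siRNA replicate 2 was above replicate 1, and both were far above the controls. Tex19.1 took 58.4% and 54.6% of the summed RPKM of the 10 genes after control siRNA, and 66.9% and 70.1% when Hnrnpk was depleted. Without Tex19.1 the other 9 summed to 35.1 and 38.6 RPKM after control siRNA and to 88.8 and 87.0 RPKM after Hnrnpk siRNA.

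Dazl encodes an RNA-binding protein that controls translation in germ cells and is needed for their development. It was at 2.77 and 2.50 RPKM after control siRNA and at 11.6 and 11.2 RPKM after Hnrnpk siRNA. The ratio of means, 4.32, was the highest of the 10, and Dazl rose by 1.92 on the log2 scale (limma, SE 0.0813, adjusted p = 1.40e-07). A larger rise was seen in 0.761% of the genes tested. The log2 changes of Dazl and Tex19.1 lay within 1 SE of each other, and Tex19.1 remained the more abundant of the pair in every library. The genes outside the 10 with the most similar values to Dazl over the 4 libraries were Cd55, Rtkn, Zbtb10, Abcb1b and Stmn3, at Euclidean distances of 0.210, 0.222, 0.245, 0.246 and 0.390 in log2(RPKM + 0.5).

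**Figure D3:**
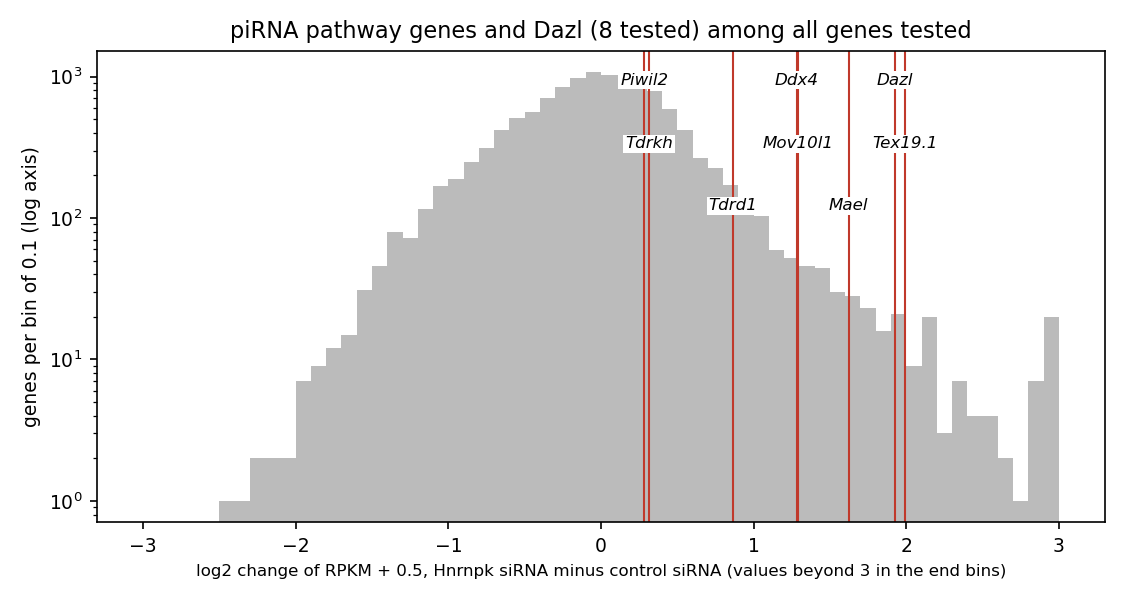
Histogram of the log2 change of all 12486 genes tested (grey, log y axis) with red lines at the 8 tested genes. Piwil2 and Tdrkh lie within the body of the distribution at 0.28 and 0.31, and Mael, Dazl and Tex19.1 lie in its upper tail at 1.62, 1.92 and 1.99.

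The order of levels changed little. In the control libraries the means ran from Tex19.1 (47.8 ± 1.94 RPKM, SD, n = 2) through Piwil2 (10.5 ± 0.598), Ddx4 (9.78 ± 1.13) and Mael (8.69 ± 0.550) to Dazl (2.64 ± 0.187), Mov10l1 (2.47 ± 0.127), Tdrkh (1.89 ± 0.0986), Tdrd1 (0.615 ± 0.161), Asz1 (0.125 ± 0.0107) and Tdrd9 (0.110 ± 0.00300). Piwil2, Ddx4 and Mael were within about an SD of their neighbours, as were Dazl and Mov10l1. After Hnrnpk siRNA, Mael (27.7 ± 0.503 RPKM) and Ddx4 (24.4 ± 0.379) stood above Piwil2 (12.9 ± 0.901), which was near Dazl (11.4 ± 0.310).

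The rest of the pathway did not move in 1 direction. Of 20 other piRNA pathway genes fixed as a list, 18 were in the table and 13 were tested, with 6 called higher and 4 lower (32.2% and 35.0% of all genes tested). The median log2 change was 0.21 over the 13 tested and -0.018 over all 18. The summed RPKM of the 18 went from 109 in both control libraries to 93.1 and 93.6 after Hnrnpk siRNA. Morc1 (mean 38.5 to 22.6 RPKM) and Tdrd12 (19.9 to 9.07 RPKM), the most abundant of the 18 after control siRNA, together fell by more than that sum. The fall of the sum therefore does not describe the other genes of the list. The 5 not tested (Piwil1, Piwil4, Tdrd6, Exd1 and Spocd1) were under 0.5 RPKM in every library. Fkbp6, a co-chaperone of piRNA loading, rose from 2.71 and 3.15 RPKM to 6.89 and 7.35 RPKM (log2 change 1.15, SE 0.0909, limma adjusted p = 4.65e-06). Henmt1, listed as 4921515J06Rik, encodes the methyltransferase of piRNA 3′ ends and rose from 0.139 and 0.231 RPKM to 0.852 and 1.06 RPKM. Henmt1 entered the test only through its Hnrnpk siRNA values, its control values being under 0.5 RPKM. Its log2 change was 1.09 with 0.5 RPKM added, 1.90 with 0.1 RPKM added and 0.72 with 1 RPKM added. Stk31, a Tudor domain gene of germ cells, rose by 0.997 on the log2 scale from 3.80 and 4.21 RPKM to 8.75 and 8.22 RPKM. The remaining genes called higher were Gtsf1, Mybl1 and Gpat2, named after their values were seen, with log2 changes of 0.87, 0.80 and 0.48.

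Other partners fell. Tdrd12, a Tudor helicase of secondary piRNA production, went from 19.6 and 20.2 RPKM to 8.91 and 9.24 RPKM (log2 change -1.09, SE 0.0675, limma adjusted p = 1.16e-06). Morc1, which represses transposons in male germ cells, went from 38.4 and 38.5 RPKM to 23.0 and 22.3 RPKM (log2 change -0.75). Pld6, a mitochondrial nuclease-like protein of piRNA biogenesis, went from 7.43 and 7.23 RPKM to 4.31 and 4.83 RPKM (log2 change -0.63). These drops left no overlap between the groups. Pnldc1, the piRNA trimmer, named after its values were seen, was the fourth gene called lower (log2 change -0.22). The 3 tested genes that were not called were Tdrd7, Rnf17 and Tex15, with log2 changes of 0.21, 0.062 and -0.024. Piwil1 and Piwil4, the other mouse PIWI genes, were at 0.305 RPKM or less and at 0.452 RPKM or less in all libraries, too low for the test.

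**Figure D4:**
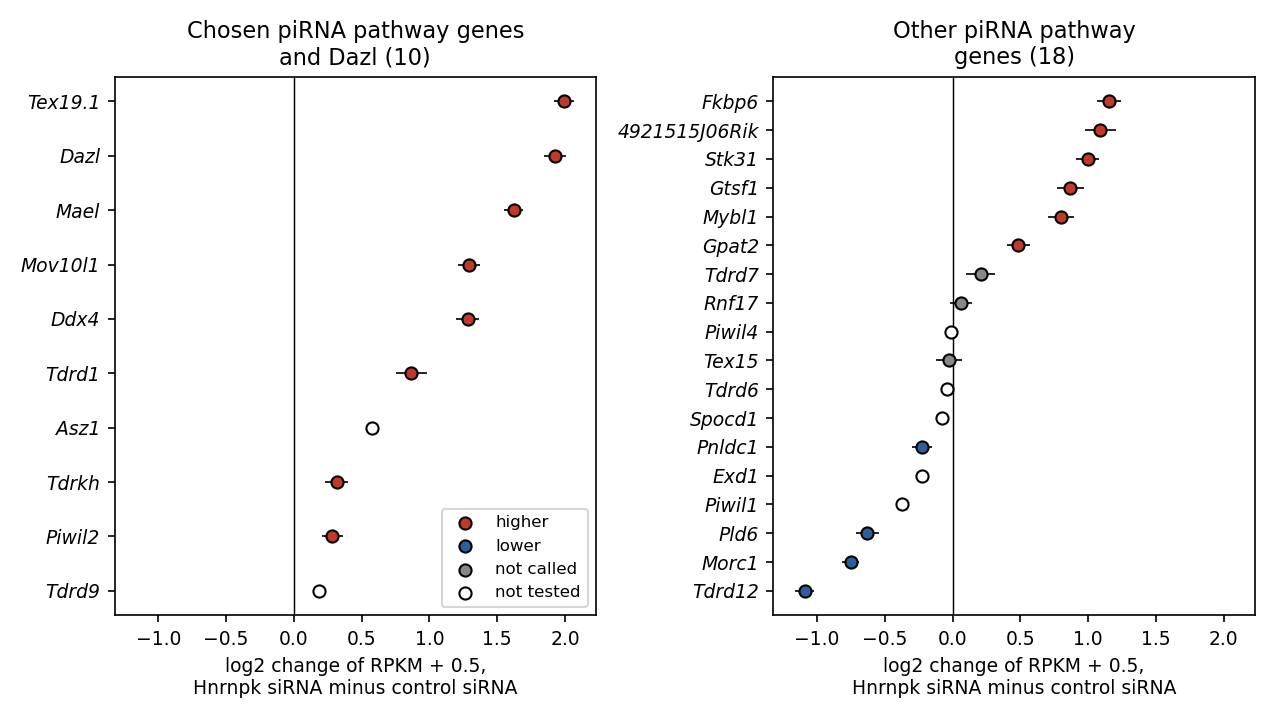
Log2 change of RPKM + 0.5 with SE for the 10 genes (left) and 18 other piRNA pathway genes (right), red for called higher, blue for called lower, grey for tested and not called, and open without SE for genes under the level needed for the test. All 10 on the left lie above 0, and the genes on the right range from -1.09 (Tdrd12) to 1.15 (Fkbp6).

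Relatives of the 10 genes also differed among themselves. Of 7 relatives tested, 4 were called higher and 2 lower, beside 32.2% and 35.0% of all genes tested, with a median log2 change of 0.22. Tex19.2, the paralog of Tex19.1, rose from 1.57 and 1.62 RPKM to 5.54 and 6.31 RPKM (log2 change 1.61, SE 0.0911, limma adjusted p = 7.40e-07). Mov10, the widely expressed relative of Mov10l1, fell from 43.8 and 41.3 RPKM to 24.7 and 22.6 RPKM (log2 change -0.83, SE 0.0698, limma adjusted p = 6.82e-06). No stretch of 100 bases or more at 95% identity linked the transcript of Tex19.1 or Mov10l1, or of any of the 10 but Tdrkh, to another gene.

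Smaller changes were seen in the other relatives. Boll, of the Dazl family, was at 0.424 and 0.479 RPKM after control siRNA and at 0.839 and 0.701 RPKM after Hnrnpk siRNA (log2 change 0.42, limma adjusted p = 0.00539). Boll averaged under 0.5 RPKM in the control libraries and entered the test through its Hnrnpk siRNA values. It was not called without Hnrnpk siRNA replicate 1 (0.34, adjusted p = 0.0845), nor with GC trends removed (0.19, adjusted p = 0.0884), and had 0.66 with 0.1 RPKM added. Tdrd3, a Tudor gene outside the piRNA pathway, had a log2 change of 0.24 (limma adjusted p = 0.0474), and was 0.15, 0.22 and 0.26 and not called without control replicate 1, Hnrnpk siRNA replicate 1 or Hnrnpk siRNA replicate 2 (adjusted p = 0.159, 0.227 and 0.159). With GC trends removed it was 0.11. Snd1, a Tudor-nuclease of many tissues, had a log2 change of -0.25 (limma adjusted p = 0.0111), which was not called without control replicate 1 (-0.17, adjusted p = 0.0690) or without Hnrnpk siRNA replicate 2 (-0.23, adjusted p = 0.0595).

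Regulators of the germ line changed in both directions. In a list of 17, 13 were tested, with 4 called higher and 6 lower, beside 32.2% and 35.0% of all genes tested. The median log2 change was -0.18 over the 13 tested and -0.024 over all 17. Nanos3, a translational regulator that protects primordial germ cells, rose from 4.41 and 5.02 RPKM to 9.50 and 10.8 RPKM (log2 change 1.03). Ddx25, a germ cell helicase, and Prdm14, a factor of germ cell specification and naive pluripotency, rose by 0.47 and 0.39. Ybx2, which packages germ cell mRNA, fell from 12.3 and 9.50 RPKM to 5.31 and 5.65 RPKM (log2 change -0.92). Elavl2, an RNA-binding protein, and Dppa3, a maternal factor also known as Stella, had log2 changes of -0.87 and -0.82. The highest limma adjusted p of these 6 was 0.00263 (Prdm14).

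Known repressors of germ line genes were measured as transcripts in the same libraries. Of 16 tested, 2 were called higher and 8 lower, beside 32.2% and 35.0% of all genes tested, with a median log2 change of -0.15. The DNA methyltransferase genes Dnmt3b and Dnmt3a fell, Dnmt3b from 81.6 and 93.5 RPKM to 40.8 and 37.8 RPKM (log2 change -1.14, SE 0.0785, limma adjusted p = 2.11e-06) and Dnmt3a from 14.6 and 19.12 RPKM to 7.63 and 7.58 RPKM (log2 change -1.09, SE 0.110, limma adjusted p = 2.09e-05). Ehmt2, the G9a methyltransferase of lysine 9 of histone H3, had a log2 change of -0.65 (limma adjusted p = 1.63e-05). Dnmt3l, a cofactor of those methyltransferases that is itself a germ line gene, rose from 95.8 and 111 RPKM to 208 and 198 RPKM (log2 change 0.97). E2f6, a repressor that recognises the E2F-type word searched above, rose from 11.3 and 12.4 RPKM to 19.8 and 20.2 RPKM (log2 change 0.74). Setdb1 was at 35.2 and 36.1 RPKM after control siRNA and at 33.3 and 32.4 RPKM after Hnrnpk siRNA and was not called (log2 change -0.12, SE 0.0615, limma adjusted p = 0.114). The part of these transcripts in the rise of the 10 genes was not tested.

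Markers of other cell types moved with the 10 genes in some cases. For 2-cell-like cells, 6 of 8 markers were in the table, and their summed RPKM went from 0.710 to 0.787 after control siRNA to 39.4 to 46.3 after Hnrnpk siRNA. All 6 were called higher, but each was under 0.5 RPKM in both control libraries and entered the test only through its Hnrnpk siRNA values, so that count says nothing of its own. Primitive endoderm markers, of which 5 of 6 were tested and called higher (Pdgfra entering only through its Hnrnpk siRNA values), went from a sum of 5.17 to 5.20 RPKM to 30.3 to 30.9 RPKM. The sum for trophectoderm markers, of which 5 of 7 were tested and called higher, went from 30.5 to 36.0 RPKM to 68.5 to 73.1 RPKM. Most of that sum came from Krt8 and Krt18. Elf5, not tested, was lower, from 0.105 and 0.109 RPKM to 0.0608 and 0.0705 RPKM. Cdx2, also not tested, was higher, from 0.166 and 0.303 RPKM to 0.731 and 0.749 RPKM. These trophectoderm markers were named after their values were seen. Of all genes tested, 32.2% were called higher. The part of such cells in the rise of the 10 genes was not tested.

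Markers of germ cells and of fibroblasts differed in level. The 6 spermatid markers summed to 0.0411 to 0.190 RPKM over the 4 libraries, and Prm1 and Acrv1 were listed at 0 in all of them. The 5 spermatogonium markers summed to 2.14 and 1.92 RPKM after control siRNA and to 2.52 and 2.66 RPKM after Hnrnpk siRNA. Most of this sum came from Id4, which was not called. Zbtb16 was higher, from 0.0671 and 0.124 RPKM to 0.280 and 0.275 RPKM, but was too low for the test. Sohlh1, also too low, was higher, from 0.108 and 0.150 RPKM to 0.227 and 0.233 RPKM. The groups overlapped for Gfra1 and for Nanos2, which was at 0.0188 RPKM or less. Among 7 oocyte markers the sum was 9.13 and 10.1 RPKM after control siRNA and 7.92 and 8.77 RPKM after Hnrnpk siRNA, mostly from Zp3. Zp3, an egg coat protein gene, was called lower, from 7.99 and 9.16 RPKM to 6.54 and 7.07 RPKM (limma adjusted p = 0.0101). Gdf9, an oocyte growth factor gene, was called higher, from 0.592 and 0.523 RPKM to 0.907 and 1.11 RPKM (limma adjusted p = 0.00195). The other 5 were under 0.5 RPKM in every library and were not tested, among them Zp2 (0.0579 and 0.0490 RPKM, then 0.138 and 0.151 RPKM) and Bmp15 (0.00526 and 0.00536 RPKM, then 0.0840 and 0.0701 RPKM), whose groups did not overlap. The single markers in this paragraph were named after their values were seen. Fibroblast markers summed to 7.97 to 9.45 RPKM after control siRNA and to 4.01 to 4.19 RPKM after Hnrnpk siRNA.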

How the data were processed

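RNA-seq of 4 libraries was analysed from a table of RPKM per gene that the authors deposited, with a column for each library. Per the submitters' processing notes the build was mm9, with BWA and SAMtools among the tools. Tool versions, the counting method and the annotation were not given in the sources used here. Labels state both ribosomal RNA depletion and poly(A) selection. Since RPKM is no count, log2(RPKM + 0.5) was fitted with limma 3.58.1 in R 4.3.3, using a mean-variance trend, two-sided tests and no block. Benjamini-Hochberg adjustment ran over the 12486 of 22138 genes that averaged 0.5 RPKM or more, and an adjusted p under 0.05 made a call. The added constant shrinks the fold of low genes. The fit was tested on simulated data. Relative depth was read from the steps between low values. Transcripts were compared within GENCODE M21 by BLAST 2.17.0, and promoters came from RefSeq (GRCm38.p6, the most upstream start of each gene).

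The 10 genes and every list were chosen with earlier results of these data known. By rule the named genes were the 10, Hnrnpk, Setdb1, up to 3 called genes with the largest rise and up to 3 with the largest fall in each list, and the 5 nearest to Dazl. The list genes Tdrd5, Btbd18, Tcstv1 and Tcstv3 were not analysed here. The alternatives were 0.1 or 1 RPKM as the constant, every gene above 0 or a floor of 1 RPKM on the mean, median-ratio scaling, quantile normalization, limma with no trend, the replicate number as a block, each library left out and, chosen after seeing the data, GC trends removed.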

Additional observations from a re-analysis of the deposited data

How the results depend on the processing

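The 10 genes had a log2 change above 0 under each of the 13 alternatives, and the number called higher was 8 in 10 of them. With no filter on low values 10 were called, and 7 of the other piRNA pathway genes were called lower in place of 4. In that setting 4760 of the 18814 genes tested were called higher and 4900 lower. The median log2 change of the 10 genes was then 1.07 in place of 1.29, since Asz1 and Tdrd9 entered. Leaving out 1 library at a time gave 6 to 8 genes called higher; a lone library was then assumed to vary like the other group. Same-numbered libraries did not deviate together (correlation 0.0267 over 12486 genes). That value cannot show whether they were prepared as pairs. With the replicate block 8 of the 10 were called higher, and 4162 genes were called higher and 4460 lower over all genes, against 4025 and 4371 without it. Henmt1 and Boll were not tested with a mean of at least 1 RPKM, and Tdrd3 was not called with no filter (limma adjusted p = 0.117; lowest 0.00457 and highest 0.285 in all settings). Low levels limit Tdrd9 and Asz1, whose size depends on the added constant.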
